A study of Mus musculus with 30 samples.

Results

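Transcripts usually read as marks of myeloid cells, mast cells, basophils or platelets were followed across arrays of CD8+ T cells. They come from 8 genes, Lyz2, Fcer1g, Lgals3, Cpa3, Mcpt8, Kit, Ppbp and Pf4, out of 19938 genes named by 1 symbol. They were chosen because earlier results on these same arrays showed unexpected levels, so their own levels and differences are given as a description, without a test. Each of the 8 had 1 probe set row on the array.

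The groups were made of CD8+ T cells with the transgenic Pmel-1 T cell receptor, taken from the spleens of adult C57BL/6 mice labelled female and aged 6 to 12 weeks. Naive cells (TN) came from Ly5.1 mice and in vitro differentiated memory cells (TMem) from Ly5.2 mice, and the Pmel-1 transgene was shared by all groups. Unstimulated cells stand for 0 h; the others were given IL-2 and antibodies against CD3 and CD28 for 18 h or 96 h. In the alone groups each population was stimulated by itself, in the mix groups both were cultured together, and cells of each kind were sorted by flow cytometry before RNA extraction. There were 10 groups (TN and TMem, each alone at 0, 18 and 96 h and mixed at 18 and 96 h) of 3 arrays each. The labels name the repeats as biological; they do not say whether mice were pooled, and an in vitro made memory population is a model of the memory cell.

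Lysozyme 2 (Lyz2) digests bacterial cell walls and is an abundant product of monocytes, macrophages and granulocytes. Fcer1g encodes the Fc receptor gamma chain, a small signalling subunit with an ITAM that pairs with Fc receptors, NK receptors and several C-type lectins, and Lgals3 encodes galectin-3, a sugar-binding protein made by macrophages and also by activated T cells. Cpa3 (carboxypeptidase A3) and Mcpt8 (mast cell protease 8) are granule proteases of mast cells and basophils, and Kit is the receptor of stem cell factor on which mast cells and progenitors depend. Ppbp (platelet basic protein, a CXC chemokine precursor) and Pf4 (platelet factor 4) are stored in the granules of platelets. In mice Ppbp and Pf4 lie next to each other in a cluster of CXC chemokine genes, and Mcpt8 lies in the protease cluster between Mcpt4 and Ctsg, per the RefSeq gene order.

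The 250 bases before the RefSeq start of 5 of the genes are shown, on the build GRCm38.p6. Of these, Cpa3, Ppbp and Pf4 shared their highest group. Lyz2 and Mcpt8 shared another with Kit, whose windows are not shown. Each line runs 5′ to 3′ on the strand of the gene. Capitals mark a word of the GATA kind (AGATAA, its variant TGATAA, its variant AGATAG or its variant TGATAG, on either strand), the class of word bound by the mast cell and megakaryocyte factors GATA1 and GATA2. The windows are, in the order shown, chr3:20242182-20242431 on the minus strand, chr14:56085198-56085447 on the minus strand, chr5:90768268-90768517 on the plus strand, chr5:90772185-90772434 on the plus strand and chr10:117282273-117282522 on the minus strand.
Cpa3: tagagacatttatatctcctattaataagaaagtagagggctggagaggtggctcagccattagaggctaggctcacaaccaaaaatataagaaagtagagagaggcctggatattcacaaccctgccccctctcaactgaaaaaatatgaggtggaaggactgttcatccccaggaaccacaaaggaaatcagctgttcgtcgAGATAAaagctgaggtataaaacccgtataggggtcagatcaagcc
Mcpt8: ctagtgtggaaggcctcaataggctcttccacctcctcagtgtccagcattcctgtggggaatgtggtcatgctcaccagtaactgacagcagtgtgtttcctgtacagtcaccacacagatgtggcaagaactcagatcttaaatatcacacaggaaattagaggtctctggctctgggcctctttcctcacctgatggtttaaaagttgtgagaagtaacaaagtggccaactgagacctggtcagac
Ppbp: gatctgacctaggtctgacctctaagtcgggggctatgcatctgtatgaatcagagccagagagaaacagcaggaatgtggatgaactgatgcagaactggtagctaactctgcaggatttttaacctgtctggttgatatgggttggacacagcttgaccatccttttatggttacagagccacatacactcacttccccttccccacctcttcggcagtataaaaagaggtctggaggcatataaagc
Pf4: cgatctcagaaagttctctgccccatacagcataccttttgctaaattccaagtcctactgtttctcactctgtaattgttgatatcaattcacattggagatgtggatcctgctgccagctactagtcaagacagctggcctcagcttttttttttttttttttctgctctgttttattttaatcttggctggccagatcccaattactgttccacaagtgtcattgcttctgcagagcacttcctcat
Lyz2: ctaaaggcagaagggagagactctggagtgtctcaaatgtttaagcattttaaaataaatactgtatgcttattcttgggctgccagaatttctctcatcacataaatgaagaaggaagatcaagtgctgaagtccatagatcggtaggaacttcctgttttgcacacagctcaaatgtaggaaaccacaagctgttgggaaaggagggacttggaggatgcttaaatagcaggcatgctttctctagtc

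A GATA word was found in 1 of the 8 genes, Cpa3, at positions -46 to -41 from the start. Such a word was found in 26.5% of all 32851 promoter windows of the same length. The word GAGGAA is a form of the sequence bound by the myeloid factor PU.1, whose core is GGAA. On either strand it was found in 23.3% of the windows and in those of Mcpt8, Kit and Pf4. Other forms were not searched for, so a window without this word may still hold such a core. The words CACGTG and CATGTG, bound by MITF, were found in 17.6% of the windows and in none of the 8. A match is a run of letters in this window and shows no binding.

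The deposited values were log2 probe set values from 2.05 to 14.2, with array medians of 6.76 to 6.94. A group is called near background here where its mean level was under the lower quartile of all rows, averaged over its arrays (5.58 to 5.77 on single arrays). The T cell label fitted its markers: over the 10 groups the mean level of Cd8a lay between 11.3 and 12.4, that of Cd3e between 12.0 and 12.8 and that of Cd8b1 between 10.5 and 11.7. The arrays went against another label. All groups are labelled female, yet the Y-linked transcript Eif2s3y lay between 8.82 and 9.51 on all arrays of TMem cells, where Xist, the transcript of the inactive X chromosome, lay between 4.99 and 6.02. In TN cells Eif2s3y had a mean of 4.19 at 0 h and of 4.17 in the alone group at 96 h, but lay between 8.09 and 8.50 at 18 h and between 7.34 and 7.89 in the mix group at 96 h, with Xist between 9.34 and 12.1 throughout. The Y-linked signal therefore moves with the groups in each comparison of TMem with TN cells. It also does so in TN alone at 18 h against 0 or 96 h, and in TN mix against TN alone at 96 h. What gave this signal was not tested. In those comparisons it cannot be told apart from cell type, culture or time.

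The array TMem alone 0 h replicate 3 stood apart from the other 2 arrays of its group for several of these genes. It held the highest value of the group for Cpa3, Pf4 and Kit and the lowest for Lgals3. Differences that moved beyond the spread between replicates without it, and counts of calls that rest on it, are given with and without it. On bulk arrays, more cells of a type and more RNA per cell cannot be told apart.

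The members were not high in the same groups. Lyz2, Mcpt8 and Kit were highest in TN cells stimulated alone for 96 h. Cpa3, Ppbp and Pf4 were highest in TMem cells at 0 h. Fcer1g was highest in TMem cells alone at 96 h. Lgals3 was high in all TMem groups, highest in TMem cells mixed at 96 h. Between the lowest and the highest group mean, the range was 22.4-fold for Lgals3, 7.80-fold for Fcer1g, 2.63-fold for Kit and 2.45-fold for Pf4. For the other 4 the lowest group mean was near background, so only the difference of the deposited values is given: 4.12 on the log2 scale for Cpa3, 3.12 for Ppbp, 3.06 for Lyz2 and 1.87 for Mcpt8.

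**Figure D1:**
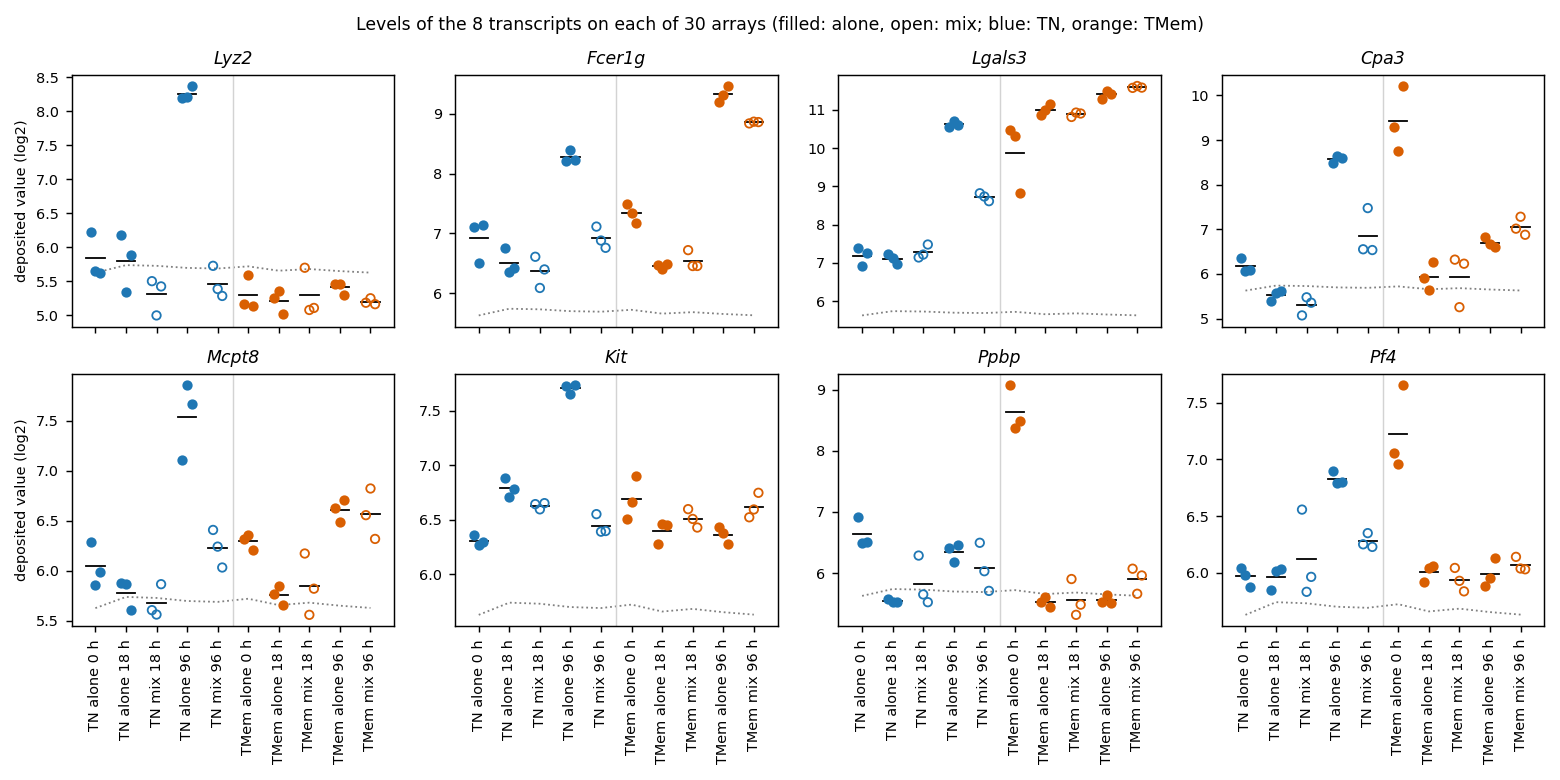
Deposited log2 value (vertical axis) of each of the 8 genes on every array, by group (horizontal axis); blue is TN and orange TMem, filled points are alone and open points mix, the short line is the group mean and the dotted line the lower quartile of all rows, averaged over the group. Lyz2 stands at 8.20 to 8.37 in TN alone 96 h and at no more than 6.23 on any other array, while Ppbp stands at 8.37 to 9.07 in TMem alone 0 h and at no more than 6.92 elsewhere.

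Lyz2 was read at 8.20, 8.20 and 8.37 on the 3 arrays of TN cells alone at 96 h. The highest value on any of the other 27 arrays was 6.23, on TN alone 0 h replicate 1, so this group stood 1.97 above all others on the log2 scale. In 7 of the 10 groups, among them all 5 TMem groups, Lyz2 was near background. When TN cells had been cultured with TMem cells for 96 h, the arrays read 5.73, 5.39 and 5.29, each below the lower quartile of its array. All 3 were therefore at the level of the other groups. The difference of mix from alone was -2.79 (SE 0.19, n = 3 arrays a group). The mix level was near background, where a value says little about the amount of RNA. The order of the other 9 groups, from TN alone 0 h (mean 5.84) to TMem mix 96 h (mean 5.20), held no neighbours whose arrays did not overlap.

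Fcer1g was read at 9.20, 9.32 and 9.47 in TMem cells alone at 96 h and at 8.84, 8.87 and 8.86 in TMem cells mixed. TN cells alone at 96 h followed at 8.21, 8.39 and 8.23. These 3 groups did not overlap each other or any other group. TMem cells at 0 h came next at 7.49, 7.35 and 7.18, and TN cells mixed at 96 h were read at 7.11, 6.88 and 6.76, in the range of unstimulated TN cells (7.11, 6.50 and 7.14). At 18 h the group means lay between 6.36 and 6.54 whatever the cell and the culture. The difference of 96 h from 18 h was 2.88 (SE 0.14) in TMem cells alone and 1.77 (SE 0.14) in TN cells alone, and that of TN mix from TN alone at 96 h was -1.36 (SE 0.14).

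Lgals3 was read at 11.58, 11.62 and 11.58 in TMem mix 96 h and at 11.30, 11.50 and 11.43 in TMem alone 96 h, and these groups did not overlap. TMem cells at 18 h lay between 10.8 and 11.1 in both cultures. TN cells alone at 96 h were read at 10.55, 10.72 and 10.61, below every TMem array of 18 h and 96 h and above TN cells mixed at 96 h, with 8.82, 8.74 and 8.61. TN cells at 0 h and 18 h lay between 6.92 and 7.48. TN cells were thus higher at 96 h than at 18 h in both cultures, by 3.52 (SE 0.23) in the alone group. In TMem cells at 0 h the arrays were far apart, at 10.48, 10.32 and 8.83. The difference of TMem 18 h from 0 h, 1.12 (SE 0.23), was 0.60 (SE 0.12) without TMem alone 0 h replicate 3, and the difference of TMem from TN at 0 h, 2.69 (SE 0.23), was 3.21 without it.

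Cpa3 was read at 9.30, 8.74 and 10.21 in TMem cells at 0 h. After 18 h of stimulation the arrays of TMem cells alone read 5.92, 5.63 and 6.28, a difference of -3.48 (SE 0.27). Of these 3 arrays 1 lay below its lower quartile, so no fold is given. Without TMem alone 0 h replicate 3 that difference was -3.08 (SE 0.26). TN cells at 0 h read 6.35, 6.07 and 6.08, and at 18 h they were near background. TN cells alone at 96 h had the second highest level, at 8.49, 8.64 and 8.60, and did not overlap with TMem cells at 0 h, whose lowest array stood 0.10 above them. TN cells mixed at 96 h were read at 6.55, 7.48 and 6.54, with replicate 2 above the other 2 arrays, and lay below the alone group by 1.73 (SE 0.27). TMem cells at 96 h were lower, with means of 6.70 alone and 7.06 mixed. Both cell types thus had their lowest Cpa3 levels at 18 h.

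Mcpt8 was read at 7.11, 7.86 and 7.67 in TN cells alone at 96 h, the most spread of its groups (SD 0.39). No other array was above 6.82, the value of TMem mix 96 h replicate 2. TMem cells at 96 h followed with means of 6.61 alone and 6.57 mixed, whose arrays overlapped. TN cells mixed at 96 h read 6.41, 6.24 and 6.03, overlapping with TN cells at 0 h, and lay below TN cells alone by 1.32 (SE 0.16); without TN alone 96 h replicate 1 the difference was -1.53. All 18 h groups had means between 5.68 and 5.85, at or close to background.

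Kit was read at 7.73, 7.65 and 7.73 in TN cells alone at 96 h, the least spread of the members in that group (SD 0.05). The next group was TN alone 18 h, at 6.89, 6.71 and 6.78, and the highest array outside TN alone 96 h was TMem alone 0 h replicate 3, at 6.91. TN cells mixed at 96 h read 6.55, 6.39 and 6.40, below the alone group by 1.26 (SE 0.09) and above TN cells at 0 h, at 6.36, 6.27 and 6.30. In TN cells alone the arrays of 18 h already lay above those of 0 h, by 0.48 (SE 0.09) in the mean. In TMem cells the group means stayed between 6.36 and 6.69.

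Ppbp was read at 9.07, 8.37 and 8.48 in TMem cells at 0 h. No other array was above 6.92, the value of TN alone 0 h replicate 1, so the gap to all others was 1.46. At 18 h TMem cells read 5.53, 5.61 and 5.44, near background, a difference of -3.12 (SE 0.19), and TMem cells alone at 96 h were near background as well. TN cells alone went from 6.92, 6.49 and 6.51 at 0 h to 5.57, 5.52 and 5.53 at 18 h and 6.40, 6.19 and 6.46 at 96 h. Ppbp was the 1 gene of the 8 whose TN arrays at 96 h overlapped between alone and mix, the mix arrays standing at 6.50, 6.03 and 5.71.

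Pf4, the neighbour of Ppbp on the chromosome, was read at 7.06, 6.96 and 7.66 in TMem cells at 0 h. TN cells alone at 96 h came second at 6.89, 6.79 and 6.80, 0.07 below the lowest of these arrays, and TN cells mixed at 96 h next at 6.25, 6.35 and 6.23. No other group mean was above 6.12. The difference of TMem from TN cells at 0 h was 1.26 (SE 0.14), and 1.04 without TMem alone 0 h replicate 3. Pf4 thus shared the 0 h group with Ppbp, but in TN cells alone it stood higher at 96 h than at 0 h (5.97, mean), whereas Ppbp did not.

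**Figure D2:**
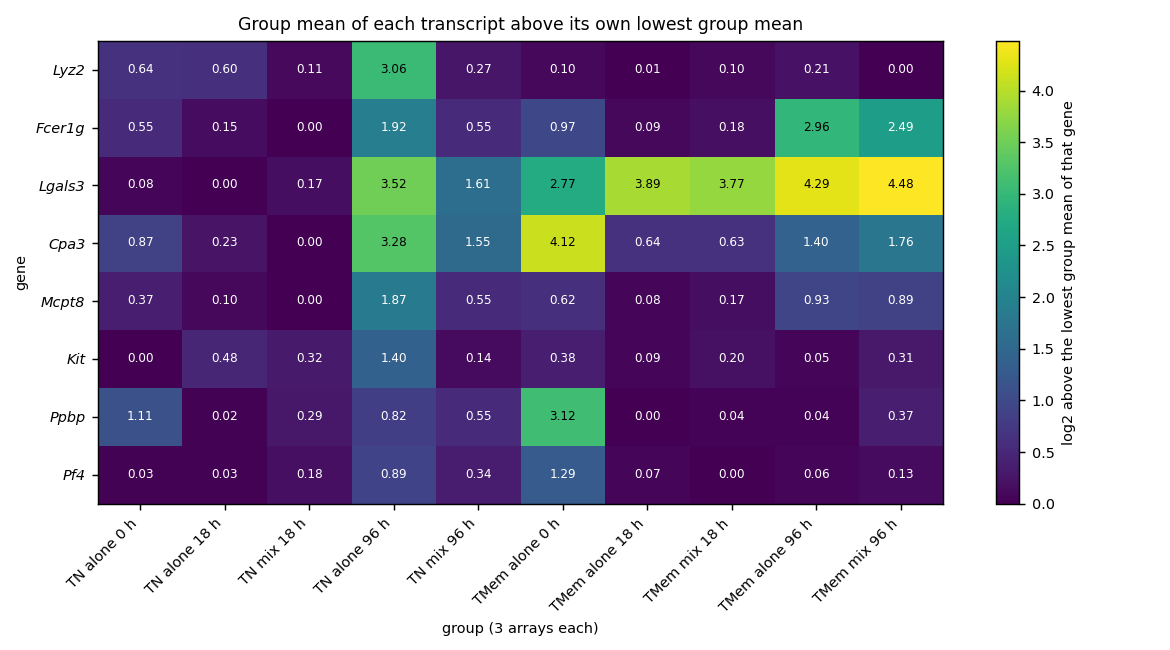
Group mean of each gene (rows) above that gene's own lowest group mean, in log2, for the 10 groups (columns, 3 arrays each); lighter cells are higher. The column TN alone 96 h is 0.82 or more above the lowest group in all 8 genes, and in the column TMem alone 0 h Cpa3, Ppbp and Lgals3 reach 4.12, 3.12 and 2.77.

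From 18 h to 96 h in TN cells alone, 8 of the 8 were higher without overlap of the arrays, with a median difference of 1.77 against -0.01 over all genes. Such a pattern was seen in 18.8% of all genes, and the opposite one in 23.2%. Since the genes were chosen for their levels on these arrays, nothing is read from the count. In TMem cells alone over the same interval, 4 of 8 were higher without overlap (Fcer1g, Lgals3, Cpa3 and Mcpt8) and none was lower, beside 26.4% and 18.1% of all genes. In both of these comparisons the members are set against 18 h arrays, which held the lowest or near lowest levels of most of them.

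The 2 groups of TN cells with low Y-linked transcripts, alone at 0 h and alone at 96 h, could be set against each other without that change in Y-linked signal. Xist still differed between them, with a mean of 10.40 at 0 h and of 12.11 at 96 h, and its part was not tested. This comparison was chosen after the label check was seen. Of the 8, 7 were higher at 96 h without overlap (21.7% of all genes) and 1, Ppbp, was lower without overlap (21.0% of all genes). The differences were 3.44 for Lgals3, 2.42 for Lyz2, 2.41 for Cpa3, 1.50 for Mcpt8, 1.40 for Kit, 1.36 for Fcer1g, 0.86 for Pf4 and -0.29 for Ppbp.

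When TN cells were stimulated together with TMem cells for 96 h, 7 of the 8 were lower than in TN cells alone without overlap, and none was higher. Over all genes 10.2% were lower and 17.6% higher in that way. The median difference of the 8 was -1.34, against 0.05 over all genes. Lgals3 was 3.74-fold lower, Cpa3 3.31-fold, Fcer1g 2.57-fold, Mcpt8 2.49-fold, Kit 2.39-fold and Pf4 1.47-fold. No fold is given for Lyz2, whose mix level was near background. At 96 h the difference of Eif2s3y between the cultures of TN cells, higher in the mix, was larger than any of these, as given above, and its part in them was not tested. The mix level of Lgals3, Cpa3, Kit and Pf4 still lay above that of TN cells at 0 h without overlap of the arrays, whereas the arrays of Fcer1g, Mcpt8 and Lyz2 overlapped with those of 0 h.

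The same comparison of mix with alone was made at 18 h and in TMem cells. Since the genes were chosen for their levels on these arrays, nothing is read from the counts at either time. In TN cells at 18 h, 1 of the 8 (Kit, with a difference of -0.16) was lower in the mix without overlap and none was higher, beside 17.4% and 16.7% of all genes. In TMem cells at 18 h all 8 overlapped, beside 4.67% lower and 7.43% higher. In TMem cells at 96 h, 4 were higher in the mix (Ppbp, Cpa3, Kit and Lgals3) and 2 lower (Fcer1g and Lyz2), beside 11.1% and 10.4% of all genes. Those differences were small, from -0.47 (SE 0.14) for Fcer1g to 0.35 (SE 0.27) for Cpa3, and that of Lyz2 was between levels near background.

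Before stimulation, 6 of the 8 were higher in TMem than in TN cells without overlap and 1, Lyz2, was lower, beside 18.7% and 17.1% of all genes. Cpa3 was higher by 3.25 (SE 0.27), which is 9.51-fold, and by 2.85 without TMem alone 0 h replicate 3, Lgals3 by 2.69 (SE 0.23), Ppbp by 2.00 (SE 0.19) and Pf4 by 1.26 (SE 0.14). Fcer1g was higher by 0.42 (SE 0.14) and by 0.21 without TN alone 0 h replicate 2, and Kit by 0.38 (SE 0.09) and by 0.27 without TMem alone 0 h replicate 3. After 18 h of stimulation in TMem cells 6 of the 8 were lower without overlap and 1, Lgals3, was higher, beside 23.4% and 20.1% of all genes. Both comparisons share the TMem arrays of 0 h. Without TMem alone 0 h replicate 3 the difference over the 18 h was -1.003 for Pf4 and -0.19 for Kit. In TN cells over the same 18 h, 2 were lower (Ppbp by 1.10, SE 0.19, and Cpa3 by 0.64, SE 0.27) and Kit was higher, beside 21.2% of all genes in either direction.

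At 96 h in the alone cultures, TMem cells were higher than TN cells for Fcer1g by 1.05 (SE 0.14) and for Lgals3 by 0.78 (SE 0.23). The other 6 were lower in TMem cells, with the largest difference, -2.84, for Lyz2 (SE 0.19). All 8 were without overlap, 2 higher and 6 lower, beside 26.6% and 19.1% of all genes.

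**Figure D3:**
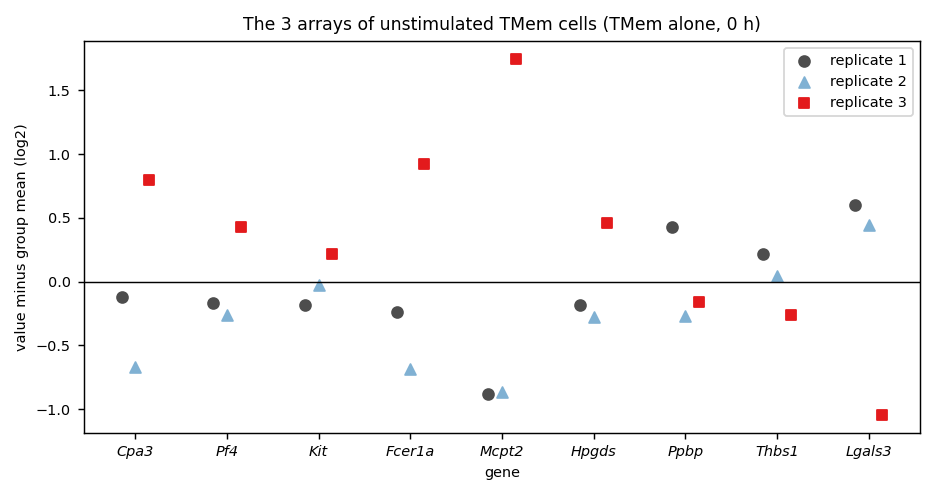
Value on each of the 3 arrays of TMem alone 0 h minus the mean of the group (vertical axis, log2), for 9 genes (horizontal axis): the members Cpa3, Pf4, Kit, Ppbp and Lgals3 and the list genes Fcer1a, Mcpt2, Hpgds and Thbs1, chosen after their values were seen. Replicate 3 is above the other 2 arrays in Cpa3, Pf4, Kit, Fcer1a, Mcpt2 and Hpgds, by as much as 1.75 above the mean for Mcpt2, and 1.04 below the mean for Lgals3.

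Other genes of the same cell types came from lists chosen with earlier results of these arrays known and without the 8 members. Of 193 listed genes 176 were measured. They were tested in the fit of all 30 arrays with limma, Benjamini-Hochberg adjusted over 19938 genes, and a gene is said to have risen or fallen where the adjusted p was under 0.05. Of the 8 measured defining genes of mast cells and basophils, 4 were above background in all 10 groups: Gata2, a transcription factor of mast cells and progenitors, with group means of 6.70 to 7.26, Hdc (6.32 to 6.83), which makes histamine, Prss34 (5.88 to 6.70) and Tpsb2 (5.85 to 6.09), both proteases. Of the same 8, Ms4a2, the beta chain of the IgE receptor, and Cd200r3, a basophil receptor, were near background in all 10 groups. Fcer1a, the alpha chain of that receptor, was near background in all groups but TMem alone 0 h. Cma1, a mast cell chymase, was near background in 6 groups. All 4 measured defining platelet genes were above background in every group, from Gp5 (6.74 to 6.94) to Treml1 (7.66 to 8.16). Of 5 defining macrophage genes Csf1r, Cd14 and C1qa were above background in every group, C1qa highest (7.57 to 8.16), Fcgr1 was near background in 5 groups and Adgre1, a macrophage surface receptor, in all 10. Of 6 defining granulocyte genes S100a9, Mpo and Elane were above background in every group, with means up to 6.83 (Mpo). Ly6g and Epx were near background in 1 group each and S100a8 in all 10. By the same line 3 of 3 defining erythroid, 3 of 5 dendritic cell, 1 of 3 B cell and 0 of 3 NK cell genes were above background in every group. Being above this line, the lower quartile of all rows, therefore does not show that a transcript was present. The mean level of the mast cell and basophil list lay between 6.10 and 6.35 on the arrays of TMem cells at 0 h, between 6.08 and 6.11 in TN cells alone at 96 h and between 5.71 and 6.11 on those of the other 8 groups. The counts and medians of these lists stand below beside the comparisons of the members, and their part in the members' levels was not tested.

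In TMem against TN cells at 0 h, 12 of 28 mast cell and basophil genes rose and 1 fell, beside 18.4% and 17.5% of all genes. The median over the list was 0.25, against 0.02 over all genes. Hpgds, the prostaglandin D2 synthase of mast cells, rose by 0.93 (SE 0.15, limma adjusted p = 7.38e-06), Fcer1a by 0.98 (SE 0.22, limma adjusted p = 6.83e-04) and Gata2 by 0.37 (SE 0.11, limma adjusted p = 0.0125). Fcer1a was read at 5.61, 5.17 and 6.77, with replicate 3 highest, and its difference was 0.52 without that array; that of Hpgds was then 0.70. Mcpt2, a mucosal mast cell protease, passed with 1.06 (SE 0.37, limma adjusted p = 0.0260) on 1 array alone: the TMem arrays read 4.70, 4.71 and 7.33, and without replicate 3 the difference was 0.18 (limma adjusted p = 0.446). Without that array 9 of the 28 rose, and without TN alone 0 h replicate 2, 8 rose. The calls of Fcer1a, Gata2 and Mcpt2 were also lost when only the 2 groups entered the fit. Leaving out TN alone 0 h replicate 3 ended the calls of Gata2 and Mcpt2, leaving out TMem alone 0 h replicate 2 that of Gata2, and leaving out TN alone 0 h replicate 2 that of Mcpt2. Of all called genes 51.2% were higher in TMem cells, and 36.7% with arrays centred on their medians, where 9 of the 28 rose and 2 fell.

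Of the platelet genes 7 of 17 rose at 0 h and 0 fell, with a median of 0.24. Thbs1, thrombospondin 1 of platelet granules, was read at 7.46, 7.28 and 6.98 in TMem cells and at 6.42, 6.27 and 6.36 in TN cells, and rose by 0.89 (SE 0.10, limma adjusted p = 6.86e-08). Itga2b, the platelet integrin subunit, rose by 0.29 (SE 0.10, limma adjusted p = 0.0285), a call that was lost without TMem alone 0 h replicate 2 or 3, without TN alone 0 h replicate 2 and under other scalings. Without TN alone 0 h replicate 2, 4 of the 17 rose. In the group of TMem 0 h the array highest in the platelet genes Ppbp and Thbs1 was replicate 1, while the platelet gene Pf4, like Cpa3, Fcer1a and Mcpt2, was highest in replicate 3. Of 27 monocyte and macrophage genes 2 rose and 1 fell, and of 21 granulocyte genes 2 rose and 0 fell, with medians of -0.0040 and 0.0010. With arrays centred on their medians 5 of the 17 platelet genes rose and 1 fell, 6 of the monocyte and macrophage genes fell and 2 rose, and 3 of the granulocyte genes fell and 1 rose.

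From 0 h to 18 h in TMem cells alone, 13 of 28 mast cell and basophil genes fell and 2 rose, beside 17.3% and 18.0% of all genes. The list's median was -0.27, against -0.09 over all genes. Hpgds fell by 1.40 (SE 0.15, limma adjusted p = 6.86e-09) and Fcer1a by 1.25 (SE 0.22, limma adjusted p = 3.74e-05). Without TMem alone 0 h replicate 3 these falls were 1.17 and 0.79. Of 17 platelet genes 8 fell and 0 rose, Thbs1 by 0.61 (SE 0.10, limma adjusted p = 2.35e-05). Of 27 monocyte and macrophage genes 6 fell, and of 21 granulocyte genes 1 fell and 1 rose; without TMem alone 0 h replicate 3 these were 10 and 4 that fell. Of all called genes 51.0% were higher at 18 h, and 61.6% with arrays centred on their medians. Among growth factors of mast and myeloid cells, 5 of 12 rose (Il3, Csf2, Il9, Il10 and Il13) and 0 fell. Il3, a growth factor of mast cells and basophils, went from a mean of 5.53 to 11.96 in TMem cells, the opposite direction to the mast cell list.

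In TN cells alone from 18 h to 96 h, 10 of 28 mast cell and basophil genes rose and 1 fell, beside 11.3% and 13.1% of all genes. Their median was 0.20, against -0.01. Prss34, a basophil protease, rose by 0.57 (SE 0.13, limma adjusted p = 0.00111) and Gata2 by 0.41 (SE 0.11, limma adjusted p = 0.00870); leaving out either TN alone 96 h replicate 2 or the third array of TN alone 18 h put Gata2 above the threshold, at an adjusted p of up to 0.0569. Of all called genes 46.2% were higher at 96 h, and 35.3% with arrays centred on their medians. Of 27 monocyte and macrophage genes 4 rose and 0 fell, among them Cybb, the phagocyte oxidase subunit, by 1.04 (SE 0.08, limma adjusted p = 8.80e-11), and of 21 granulocyte genes 3 rose and 0 fell, among them Mpo, myeloperoxidase, by 0.85 (SE 0.15, limma adjusted p = 7.99e-05). Of 17 platelet genes 3 rose. Of the 16 measured genes of a list of Fc receptors and ITAM signalling, 7 rose and 1 fell. The list also holds genes that do not pair with ITAM chains such as Fcer1g, among them Fcgr2b, Hcst and Osmr. Without single arrays the monocyte and macrophage count went down to 2 and the granulocyte count to 2; the first was 2 with centred arrays as well.

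**Figure D4:**
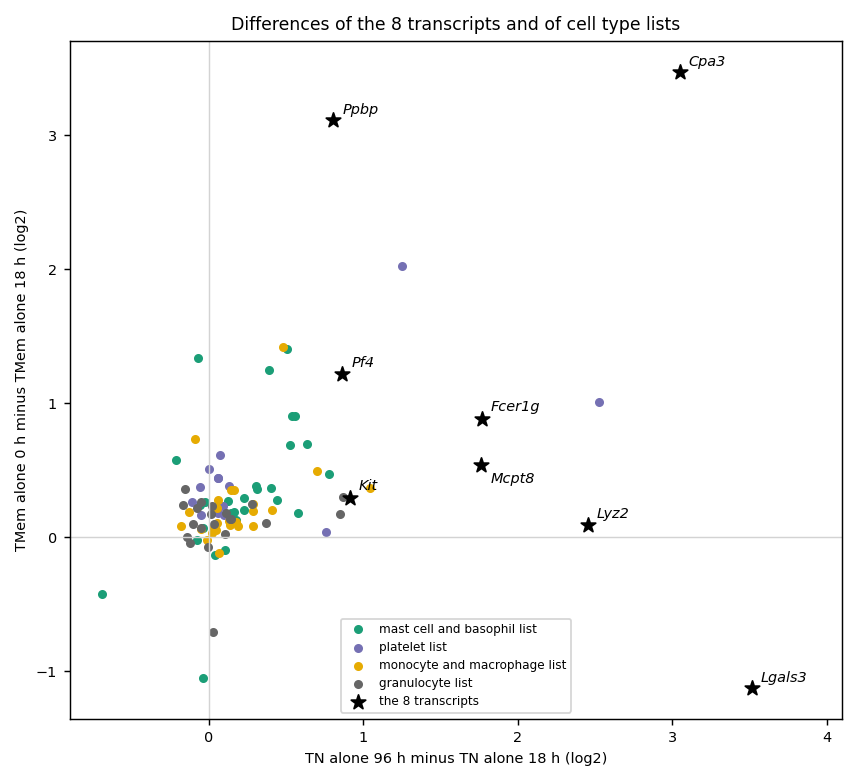
Difference of TN alone 96 h from TN alone 18 h (horizontal axis, log2) against that of TMem alone 0 h from TMem alone 18 h (vertical axis, log2), 2 comparisons that share no array; stars are the 8 members and dots the genes of 4 cell type lists. Cpa3 lies far out on both axes (3.05 and 3.48), Ppbp mainly on the vertical one (0.81 and 3.12), Lyz2 mainly on the horizontal one (2.45 and 0.09), and Lgals3 below 0 on the vertical axis. Nearly all list genes lie closer to the origin. The members were chosen for their levels on these arrays, so nothing is read from that distance.

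In TN mix against TN alone at 96 h few genes of these lists passed the test. Of 28 mast cell and basophil genes 3 fell and 0 rose, beside 3.62% and 7.00% of all genes: Prss34 by 0.51, Csf2rb, the shared beta chain of the IL-3, IL-5 and GM-CSF receptors, by 0.45, and Ms4a2 by 0.45 between levels near background. All 3 calls were lost without 1 or another array, and without TN alone 96 h replicate 2, 1 of the 28 fell. The list's median was -0.06, against 0.05 over all genes. Of 27 monocyte and macrophage genes Cybb fell and Gpnmb, a macrophage glycoprotein, rose. Cybb was read at 6.84, 6.90 and 6.89 in TN alone and at 5.69, 5.64 and 5.54 in TN mix, near background, a difference of -1.25 (SE 0.08, limma adjusted p = 3.17e-11). Gpnmb went the other way, from 6.21, 6.29 and 6.09 to 7.40, 7.78 and 7.34 (1.31, SE 0.23, limma adjusted p = 2.24e-04). The split of all called genes, 65.9% of them higher in the mix, was 51.5% after quantile normalization and 49.3% with arrays centred on their medians.

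Of 21 granulocyte genes Mpo fell by 0.73 (SE 0.15, limma adjusted p = 0.00148) and Ctsg, cathepsin G, by 0.69 (SE 0.12, limma adjusted p = 2.52e-04), while Ly6g and Elane rose. Of 17 platelet genes Itgb3, an integrin subunit that activated T cells also carry, rose by 0.58 (SE 0.10, limma adjusted p = 1.54e-04) and Nrgn fell by 0.59 (SE 0.15, limma adjusted p = 0.00835). Of the 16 genes of the Fc receptor and ITAM list 5 fell, among them Hcst, and 0 rose. Clec4e (Mincle) fell by 0.98 (SE 0.11, limma adjusted p = 3.49e-07) and Clec4n (Dectin-2) by 0.73 (SE 0.11, limma adjusted p = 2.28e-05); both are lectins that signal through Fcer1g. Without TN alone 96 h replicate 3 that count was 3, and after quantile normalization or with centred arrays it was 8. Of the 9 measured genes of the galectin list, 0 passed with limma in either direction (1 at an unadjusted p under 0.05). This list leaves out Lgals3 and includes Lgals3bp, the gene of a galectin-binding protein. Of 14 genes of dendritic cells and MHC class II 4 fell, H2-Aa, H2-Ab1, H2-Eb1 and Cd74, and the same 4 rose in TN alone from 18 h to 96 h together with Ciita.

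In TMem mix against TMem alone at 96 h 1 of 17 platelet genes rose, Itgb3, and 0 of 28 mast cell and basophil, 0 of 27 monocyte and macrophage and 0 of 21 granulocyte genes passed with limma, beside 0.968% of all genes higher and 0.150% lower. At an unadjusted p under 0.05 the last 3 counts were 0, 3 and 0 genes. The effects of mixing at 96 h in TMem and in TN cells were tested for a difference. In that test 1 of 28 mast cell and basophil genes passed (Csf2rb), and 1 of 27 monocyte and macrophage genes (Cybb). Of the 16 genes of the Fc receptor and ITAM list 3 passed (Clec4e, Clec4n and Ncr1). Over all genes 3.54% passed, of which 45.7% were higher in TMem cells (58.5% with centred arrays). In all 5 the effect was higher in TMem cells. The same 5 were called lower in TMem alone than in TN alone at 96 h, and the part of that lower level was not tested. Of the 17 platelet and 21 granulocyte genes 0 passed that test with limma (0 and 3 at an unadjusted p under 0.05).

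The genes most like each member were taken over the 10 group means, among 2103 genes whose group means had an SD of at least 0.5 on the log2 scale, leaving out the 8 members themselves, gene models without a name and receptor and antibody segments. Pearson's r here describes 10 means that share arrays of 1 platform, and has no test. Lyz2 and Kit had the same 5 genes: Klrb1b (r 0.99 with Lyz2, 0.93 with Kit), Rbpms, H2-Aa, Eng and Foxp3. All 5 were, like Lyz2 and Kit, highest in TN alone 96 h, so r here rests mainly on that group. Foxp3, the factor of regulatory T cells, was read at 8.83, 8.74 and 8.79 in TN alone 96 h and at 7.40, 7.22 and 7.28 in TN mix 96 h. Outside TN alone 96 h its highest array was TMem alone 0 h replicate 3, at 8.62, with 6.88 and 7.21 on the other 2 arrays of that group. H2-Aa, an MHC class II chain, was read at 9.35, 9.54 and 9.48 in TN alone 96 h and had a mean of 6.62 in TN mix 96 h.

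For Mcpt8 the most like were Napsa (r 0.96), Fut8, H2-Ab1, Tafa3 and Cdh1, all highest in TN alone 96 h. For Fcer1g it was Clnk (r 0.99), an adaptor of mast cells and cytokine-stimulated lymphocytes, read at 8.05, 8.25 and 8.06 in TMem alone 96 h, followed by Slc24a3, Gcnt1, Zfp608 and Pilra. Lgals3 had Cd80 (r 0.97), Irf5, Tubb6, Sulf2 and Ptprj. Outside the members, the genes most like Cpa3 were Wdr78 (r 0.90), Neurl1b, Mxd3, Mbd4 and Depdc1b, and those most like Pf4 were Vwa5a (r 0.82), Neurl1b, Map3k8, Cracr2a and Wdr78. For Ppbp no gene outside the members was above r 0.73 (H2az2, then Fry, Rdh12, Pycard and Bace1). Among the members themselves r was 0.92 for Cpa3 with Pf4, 0.78 for Cpa3 with Ppbp, 0.89 for Lyz2 with Kit, 0.84 for Ppbp with Pf4 and 0.02 for Lyz2 with Lgals3, although both of the last pair are usually read as macrophage genes.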

How the data were processed

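Arrays of 30 samples, in 10 groups of 3, were grouped by the labels. The log2 values were used as deposited by the authors; the tools named in the submitters' processing notes are RMA and Partek, without versions or order. RNA was extracted, amplified and hybridized to Affymetrix mouse gene arrays, per the labels' protocols. Scan dates, detection calls and the genome build were not known, so batches could not be examined, and the number of arrays limits the precision.

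Of 35556 rows, 21789 named 1 gene symbol through the platform's table, 1621 named several and were left out, and 12146 had no name there. Symbols were updated by gene number for 21698 rows. For 999 genes with more than 1 row, the row with the highest mean stood for the gene. Group means were fitted to all 30 arrays with limma 3.58.1 in R 4.3.3 (20 residual degrees of freedom), without a filter, and p-values were adjusted by Benjamini-Hochberg over 19938 genes with a threshold of 0.05; the SEs are from this fit. With 3 arrays against 3 an exact permutation test could not go below 0.1 and was not used. The fit was tested on simulated data.

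The members and the gene lists were chosen with earlier results of these data known. Genes named in the text are the 8 members, list genes given with the count of their list, defining genes, and for each member the 5 genes with the highest Pearson r over the 10 group means. Promoters came from RefSeq, GRCm38.p6. Replicate numbers are shared between groups. Their deviations from the group means correlated at 0.49, 0.31 and 0.14 for TN mix and TN alone at 96 h. In no other comparison were all 3 over 0.1. These values do not show that the numbers pair the samples. The reported fit did not pair them, and a replicate block entered only among the alternatives. No 2 arrays were identical; the closest, TMem alone 96 h replicates 1 and 3, differed with an SD of 0.19. The alternatives were another scaling, the mean of a gene's rows, a filter on dim genes, a trended robust fit, array weights, the replicate block, only the groups compared, leaving out each array, and, added after seeing the data, leaving out the 0 h arrays.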

Additional observations from a re-analysis of the deposited data

Results flagged for a closer look

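The effect of mixing at 96 h differed between TMem and TN cells, by the interaction test of limma over all 30 arrays, for 14 of the 176 list genes, beside 3.54% of all genes. Values are the effect in TMem cells minus that in TN cells on the log2 scale. For Cybb, the phagocyte oxidase subunit, it was 1.40 (SE 0.12, limma adjusted p = 1.12e-08). For Clec4e it was 0.91 (SE 0.16, limma adjusted p = 4.75e-04) and for Clec4n 0.84 (SE 0.15, limma adjusted p = 9.33e-04), both lectin receptors that signal through Fcer1g. For Csf2rb, the shared beta chain of the IL-3, IL-5 and GM-CSF receptors, it was 0.61 (SE 0.16, limma adjusted p = 0.0323). Among genes of MHC class II it was 2.91 for H2-Aa, 2.17 for H2-Ab1, 1.16 for H2-Eb1 and 1.93 for Cd74. Among NK cell receptors it was 0.88 for Ncr1, 1.68 for Klrb1b and 0.64 for Cd244a, and for Cd79b, a B cell receptor chain, 1.19. It was below 0 for Eomes (-0.53), a T-box factor of memory and NK cells, and for Il10 (-1.08), a cytokine. In TN cells Cybb, Clec4e, Clec4n and Csf2rb were lower in the mix than alone, whereas in TMem cells none of these 4 passed the test. All 4 were also called lower in TMem alone than in TN alone at 96 h, and the part of that lower level was not tested. Cybb differed by 0.15 in TMem cells, Csf2rb by 0.16, Clec4n by 0.11 and Clec4e by -0.07. The Y-linked transcripts differed between TN mix and TN alone at 96 h and not between the TMem groups, and their part was not tested.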

How the results depend on the processing

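Under the alternatives, 344 values of 32 differences of the members were compared with the reported ones: none reversed, 323 stayed within the spread between replicates and 21 moved beyond it. Of 300 values of 28 named list genes, 282 stayed on their side of the threshold, 18 lost the call and none reversed. In both counts, leaving out 1 array entered only as the lowest and the highest difference of each result. Calls lost in other fits without a single array are therefore not among the 18. Genes called between TN mix and TN alone at 96 h numbered 2117, 6343 with array weights and 3208 without the 0 h arrays. With the replicate block there were 2014, and 2785 with the block and only these groups. For TMem mix against alone at 96 h 223 became 906 with array weights, 435 where no other group entered the fit, 507 without the 0 h arrays and 105 to 170 leaving out 1 array (105 without TMem alone 96 h replicate 1). For TN mix against alone at 18 h 2881 became 4853 with array weights and 1897 to 2496 leaving out 1 array (1897 without TN alone 18 h replicate 2), and the share of higher genes, 43.6%, was 60.1% with centred arrays. For TMem mix against alone at 18 h 6 became 10 with centred arrays, 100 with array weights, 36 where no other group entered, 41 without the 0 h arrays and 1 to 6 leaving out 1 array. TMem against TN at 0 h gave 7151 and 4091 with only these groups. TMem 96 h against 18 h gave 4868 and 7546 with array weights. TMem against TN alone at 96 h gave 4420, 8205 with array weights and 6699 with only these groups. The interaction gave 705, 3202 with array weights, 1185 with only these groups and 1422 without the 0 h arrays. For TN mix against alone at 96 h, the mast cell and basophil genes called, 3, were 7 with array weights and 1 to 3 leaving out 1 array. The monocyte and macrophage genes, 2, were 4 after quantile normalization, 4 with centred arrays, 7 with array weights, 5 where no other group entered, 6 without the 0 h arrays and 6 with the replicate block and only these groups. The granulocyte genes, 4, were 7 with array weights. The replicate block changed no other call by more than 1.5 times. The causes of these changes were not tested. Without detection calls, levels near background give no reliable fold.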
